A study of Mus musculus with 14 samples.

Results

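Replication-dependent histone genes encode most of the protein around which DNA is wound, and their mRNA was followed here in sorted mouse T cells. The genes were taken by name, as every probe set with 1 gene symbol that starts with H1f, H2ac, H2bc, H3c or H4c and a digit, which gave 30 of the 19937 genes that a single-symbol probe set measured, and each had 1 probe set. They comprised 8 genes for the linker histone H1, 4 for H2A, 9 for H2B, 3 for H3 and 6 for H4. By RefSeq annotation, 23 lay on chromosome 13, 4 on chromosome 3, 2 on chromosome 6 and 1 on chromosome 15. The names also took in 6 genes that are not replication-dependent: H1f6, H2ac1 and H2bc1, histones of the testis, H1f7 and H1f8, linker histones of the male and female germ line, and H1f10, a linker histone made throughout the cell cycle. The other 24 are called replication-dependent below.

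Histone mRNA of this class is made in S phase, when newly copied DNA has to be packaged, and is degraded when replication ends. It ends in a stem-loop rather than a poly(A) tail, and the stem-loop is bound by SLBP, which accompanies the mRNA through processing and translation. Transcription takes place in nuclear bodies organised by NPAT. CD4+CD8+ thymocytes follow a burst of division in the thymus, whereas most CD8+ T cells of the spleen rest.

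Expression was measured on 14 Affymetrix arrays, 1 per sample, of C57BL/6 mice labelled ENK KO or wild type (WT). CD8+ lymphocytes of the spleen came from ENK KO mice (n = 5; replicates 3 and 6, aged 2 months, and 28, 31 and 25, aged 6, 7 and 9 months) and WT mice (n = 4; replicates 22, 34, 37 and 40, aged 7 months). CD4+CD8+ lymphocytes of the thymus came from ENK KO mice (n = 2; replicate 1, aged 2 months, and replicate 29, aged 7 months) and WT mice (n = 3; replicates 7, 32 and 38, aged 7 months). Each 2-month-old animal was labelled female, as were thymus WT 7 and spleen WT 22, so that age and sex coincide within ENK KO. The labels do not spell out ENK, nor how the allele was made, while Engrailed-2, a transcription factor of the homeobox class, stands in the title. Values are the log2 expression values that the authors deposited, so that a difference of 1 is a 2-fold change.

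The medians of the arrays lay between 7.14 and 7.25. En2, the gene of Engrailed-2, lay between 6.01 and 7.87 over all arrays, and where its probes lie in the allele is not known here, so that it checks nothing. The library labelled spleen ENK KO 28 went against its label: Cd8a, the co-receptor of the sort, was at 6.78 there and at 12.06 or more on the other spleen arrays, while Cd4 was at 12.20 against 6.92 or less. Its regulatory T cell list (5 genes: Foxp3, Il2ra, Ctla4, Ikzf2 and Cd4 again) had a mean of 10.65, against 7.21 to 7.71 on the other spleen arrays. Apart from Cd4, each of these was also highest there among spleen arrays, with Foxp3 at 9.87 against 7.48 or less. Spleen values are therefore also given without this library where they rest on it. Spleen WT 22, labelled female, had Y-linked transcripts (Kdm5d at 9.85) and little Xist (5.90). The labels do not state that samples came from separate animals, so the p-values below measure only the spread between these samples.

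Of the 30 probe sets, 25 exceeded the level required for testing (6.76 on 2 or more arrays, where 6.76 is the 40th percentile of the deposited values). H1f6, H1f8, H2ac8, H3c7 and H3c15 did not, and H1f3, H2ac4 and H3c4 passed through thymus arrays alone. The second-highest array decides this, and it was at 7.09 for the lowest gene inside and at 6.69 for the highest gene outside. Genes of 1 histone type are nearly identical copies, so a probe set can read transcripts of its neighbours, and which transcripts each reads was not tested. A further 22 histone probe sets carried several symbols and are described apart.

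Spleen CD8+ cells had less histone mRNA than CD4+CD8+ thymocytes, of every type and in both genotypes. In ENK KO, 24 of the 25 tested genes were lower in spleen and 0 higher (limma, adjusted p under 0.05), where 37.1% of all tested genes were lower and 27.4% higher. In WT the counts were also 24 and 0 of 25, against 38.2% lower and 30.5% higher over all tested genes. Both tissue differences use the thymus arrays that the genotype comparison below also uses. The median log2 difference of the 25 was -1.47 in ENK KO, against -0.059 over all tested genes, and -1.26 in WT, against -0.045. The 21 replication-dependent genes tested were all lower in both genotypes, with medians of -1.77 in ENK KO and -1.56 in WT. Both medians are the values of H3c4, whose spleen values lay under the level for testing. Because H1f3, H2ac4 and H3c4 were tested only on the strength of their thymus arrays, the counts and medians were repeated over all 30 without the filter. Then 29 were lower in ENK KO, where 32.5% of all genes were, and 28 in WT, where 33% were. The median of the 30 was -1.28 in ENK KO and -1.05 in WT, nearer to zero than with the filter. The spleen arrays all lay below the thymus arrays for 30 of 30 genes in ENK KO, against 36.9% of all genes, and for 27 of 30 in WT, against 34.7%. In bulk RNA, fewer cells that make histone mRNA and less of it per cell cannot be told apart.

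**Figure D1:**
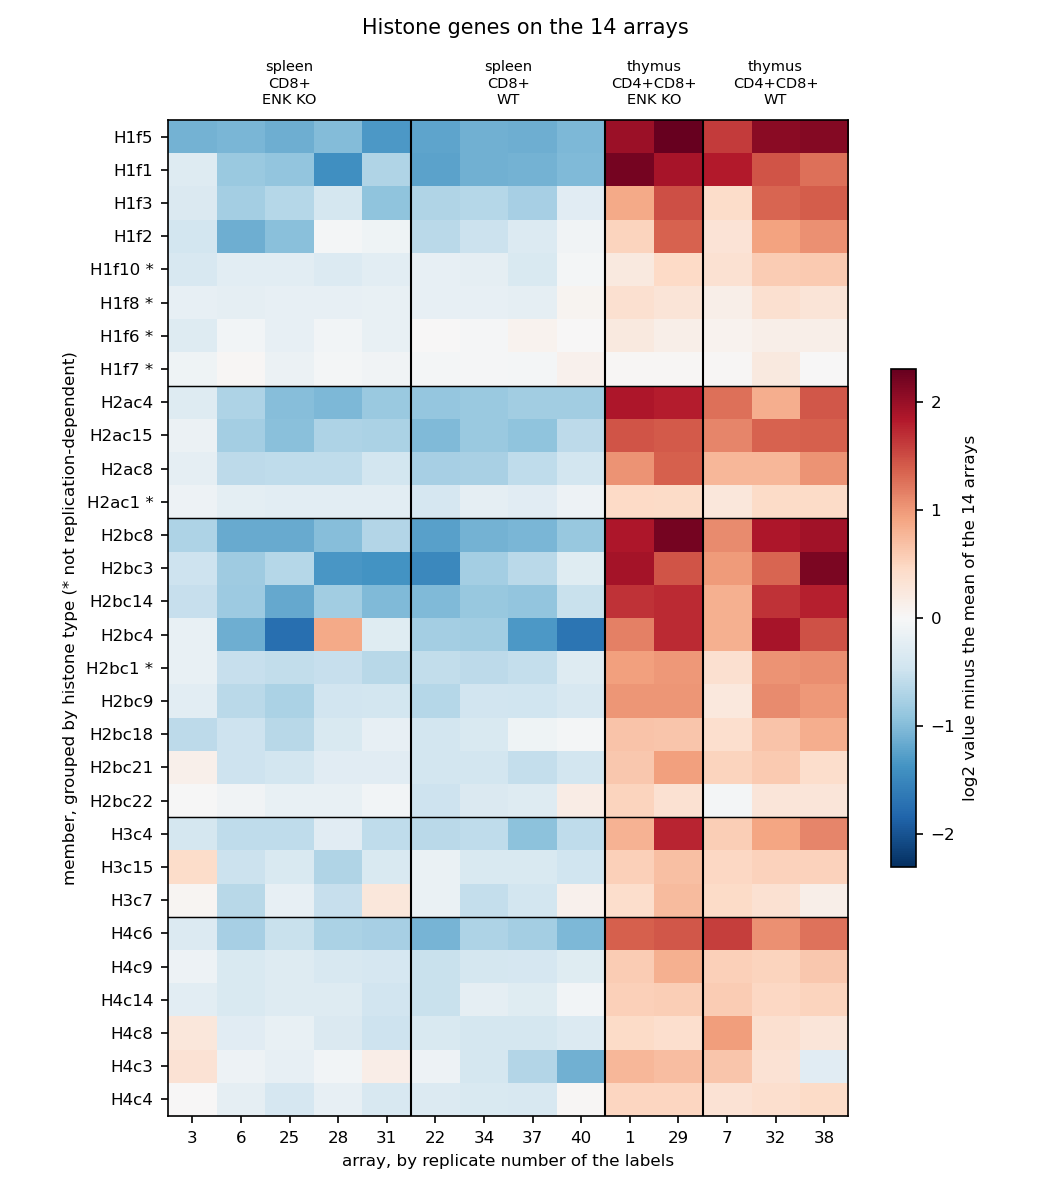
Each row is a histone gene and each column an array, coloured by its log2 value minus the mean of the 14 arrays for that gene. The spleen arrays are blue for nearly all genes and the thymus arrays red, with H1f5 and H1f1 among the strongest contrasts, H1f7 almost without contrast, and H2bc4 on spleen ENK KO 28 among the exceptions.

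The upstream sequence of the genes that mark the range of this difference is shown to set the histone types side by side. Each is the 150 bases before the transcription start in RefSeq (build GRCm38.p6), 5′ to 3′, with matches to 6 searched motifs in capitals. They are, for each type, the replication-dependent gene with the largest difference in WT (H1f5, H2ac15, H2bc8, H3c4 and H4c6), the H4 gene with the smallest (H4c4), and H2ac4, which had the smallest p between genotypes in thymus.
H1f5 (chr13:21780626-21780775, minus strand): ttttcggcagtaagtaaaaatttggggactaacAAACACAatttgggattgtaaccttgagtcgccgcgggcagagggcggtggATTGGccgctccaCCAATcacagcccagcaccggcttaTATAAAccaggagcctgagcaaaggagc
H2ac15 (chr13:21753913-21754062, minus strand): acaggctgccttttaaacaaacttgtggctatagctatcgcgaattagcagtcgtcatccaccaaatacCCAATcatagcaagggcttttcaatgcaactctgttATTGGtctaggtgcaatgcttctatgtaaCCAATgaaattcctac
H2ac4 (chr13:23750938-23751087, plus strand): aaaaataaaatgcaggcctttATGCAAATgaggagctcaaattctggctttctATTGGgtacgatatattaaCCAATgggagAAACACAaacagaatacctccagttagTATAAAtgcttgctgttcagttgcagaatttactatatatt
H2bc8 (chr13:23571250-23571399, plus strand): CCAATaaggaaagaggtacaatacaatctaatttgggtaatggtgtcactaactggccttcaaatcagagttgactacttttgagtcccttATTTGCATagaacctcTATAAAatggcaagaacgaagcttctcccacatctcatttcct
H3c4 (chr13:23575613-23575762, plus strand): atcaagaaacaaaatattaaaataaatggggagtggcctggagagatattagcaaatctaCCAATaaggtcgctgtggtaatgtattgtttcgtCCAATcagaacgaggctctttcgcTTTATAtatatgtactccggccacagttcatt
H4c6 (chr13:23551669-23551818, minus strand): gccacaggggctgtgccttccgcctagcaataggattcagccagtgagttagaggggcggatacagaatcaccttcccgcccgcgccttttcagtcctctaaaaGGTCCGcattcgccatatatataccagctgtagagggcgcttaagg
H4c4 (chr13:23581418-23581567, plus strand): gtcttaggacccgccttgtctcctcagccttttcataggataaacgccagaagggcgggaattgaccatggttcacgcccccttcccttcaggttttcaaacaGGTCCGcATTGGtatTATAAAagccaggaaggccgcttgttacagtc

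The motifs were searched on both strands of the 300 bases from 250 before to 50 after the start. Windows existed for 26 of the 30 genes and for 20 of the 24 replication-dependent genes (H2bc4, H2bc21, H3c7 and H4c14 had none). CCAAT, the box bound by NF-Y, was in 17 of these 20 (85.0%) and in 37.9% of all 27025 promoter windows. Every H1, H2A, H2B and H3 window held it. Of the H4 windows only 2 of 5 (40.0%) did, near the share over all windows. TATAAA, the letters of the TATA box, was in 13 (65.0%), against 14.2%. In 7 of the 13 (H1f1, H1f3, H1f5, H2ac4, H2bc8, H3c4 and H4c4) a run began between bases -43 and -26, and in the other 6 it lay elsewhere, from -250 in H4c6 to 22 in H2ac15. ATTTGCAT, the octamer bound by the Oct factors, was in 4 of 6 H2B and 2 of 3 H2A windows but 0 of 5 H4 windows, and in 1.75% of all windows. GGTCCG, the core of the H4 promoter element bound by HINFP, was in 5 of 5 H4 windows, against 8.39% of all windows, and otherwise in 1 of 6 H2B windows. It began at base -46 or -47, counted from the start, in H4c3, H4c4, H4c6 and H4c9. AAACACA, the box of H1 promoters, was in 3 of 4 H1 windows, against 7.14% of all windows. It was also in 1 of 3 H2A windows (H2ac4) and 1 of 6 H2B windows (H2bc14). TTTCGCGC, an E2F-like run, was in 1 of 20, against 0.318%. H4c6 and H4c4, at the extremes of the H4 differences in WT, both hold GGTCCG at nearly the same place. A match is a run of letters and does not show that a factor was bound.

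Among linker histones, which sit where DNA enters and leaves the nucleosome, H1f5 (encoding H1.5) differed most between tissues. It was at 7.63, 7.67, 7.59, 7.72 and 7.39 on the spleen ENK KO arrays and 7.50, 7.62, 7.60 and 7.69 on the spleen WT arrays. On thymus arrays it was at 10.69 and 11.03 in ENK KO and 10.33, 10.80 and 10.84 in WT. The tissues were thus separated by more than 2 log2 units with little spread in spleen. The difference was -3.26 (SE 0.13, adjusted p = 4.23e-10) in ENK KO and -3.06 (SE 0.12, adjusted p = 2.30e-10) in WT, or 9.57-fold in ENK KO and 8.31-fold in WT. H1f1 (H1.1) differed by -2.89 (SE 0.22) in ENK KO and -2.63 (SE 0.20) in WT, and H1f3 (H1.3) by -1.80 in ENK KO and -1.65 in WT. H1f2 (H1.2), a gene known to make polyadenylated transcripts as well in differentiated cells, differed by -1.47 (SE 0.32, adjusted p = 0.00129) in ENK KO and -1.15 (SE 0.29, adjusted p = 0.0034) in WT. Its spleen arrays spread from 8.19 to 9.27, more than those of H1f5.

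The linker histones outside S phase control moved less. H1f10 was lower in spleen, at -0.63 (SE 0.09) in ENK KO and -0.71 (SE 0.08) in WT. H1f7, the spermatid linker histone, was the exception in both genotypes: it differed by -0.096 in ENK KO (adjusted p = 0.206) and -0.094 in WT (adjusted p = 0.17). The arrays of this gene lay between 7.40 and 7.76, and 3 of them held the identical value 7.56. H1f6 and H1f8 stayed below the level for testing on all 14 arrays.

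H2A, which pairs with H2B in the nucleosome core, had 3 genes tested and all 3 were lower in spleen. H2ac15 was at 11.77, 11.11, 10.94, 11.19 and 11.17 in spleen ENK KO and 10.89, 11.06, 10.98 and 11.30 in spleen WT, against 13.36 and 13.31 in thymus ENK KO and 13.03, 13.26 and 13.29 in thymus WT. The groups did not overlap, and spleen ENK KO 3 was the highest spleen array. The difference was -2.10 (SE 0.17) in ENK KO and -2.14 (SE 0.16) in WT, or 4.28-fold in ENK KO and 4.40-fold in WT. H2ac4 differed by -2.61 (SE 0.18) in ENK KO and -2.02 (SE 0.16) in WT, with its spleen arrays at 4.87 to 5.59, under the level for testing. H2ac1, the testis H2A, differed by -0.66 in ENK KO and -0.62 in WT.

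All 9 H2B genes were lower in spleen in both genotypes, with medians of -1.50 in ENK KO and -1.33 in WT. H2bc8 was at 7.05, 6.61, 6.60, 6.78 and 7.08 in spleen ENK KO and 6.52, 6.67, 6.71 and 6.88 in spleen WT, against 9.63 and 9.97 in thymus ENK KO and 8.85, 9.63 and 9.71 in thymus WT. Its difference was -2.98 (SE 0.21) in ENK KO and -2.70 (SE 0.19) in WT, 7.86-fold and 6.50-fold. Only 4 of the 9 spleen arrays lay above the level for testing, so that these sizes are partly taken against a low signal. H2bc14 and H2bc3 followed with -2.57 and -2.61 in ENK KO and -2.26 and -2.28 in WT. H2bc18 and H2bc9 differed by -1.10 and -1.50 in ENK KO and -0.86 and -1.26 in WT. H2bc21, another gene known for polyadenylated transcripts, differed by -1.05 in ENK KO and -0.96 in WT, and H2bc1, the testis H2B, by -1.46 in ENK KO and -1.33 in WT. At the low end stood H2bc22, with -0.52 (SE 0.14, adjusted p = 0.00568) in ENK KO and -0.40 (SE 0.13, adjusted p = 0.0139) in WT. That call was lost in WT without thymus WT 32 (adjusted p = 0.0592) or WT 38 (adjusted p = 0.0577), and in ENK KO without thymus ENK KO 1 (adjusted p = 0.0705).

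H2bc4 had the widest spread. It was at 7.20, 6.26, 5.64, 8.24 and 7.10 in spleen ENK KO, in the order of replicates 3, 6, 25, 28 and 31, and at 6.60, 6.58, 6.06 and 5.69 in spleen WT. In thymus it was at 8.55 and 9.10 in ENK KO and 8.19, 9.27 and 8.84 in WT. The library labelled spleen ENK KO 28 thus lay within the thymus range of 8.19 to 9.27, while the other spleen arrays lay at or under 7.20. The difference between tissues was -1.93 (SE 0.54, adjusted p = 0.00701) in ENK KO and -2.54 (SE 0.49, adjusted p = 0.000512) in WT, and -2.27 (adjusted p = 0.000604) in ENK KO without that library. In ENK KO it was -1.66 with adjusted p = 0.074 without thymus ENK KO 29. The same library had the highest spleen value of H1f2, at 9.27.

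H3, of which few copies have a probe set with 1 symbol, had H3c4 as the 1 tested gene. It was at 5.55, 5.37, 5.37, 5.69 and 5.37 in spleen ENK KO and 5.34, 5.38, 5.01 and 5.37 in spleen WT, against 6.76 and 7.71 in thymus ENK KO and 6.53, 6.87 and 7.09 in thymus WT. The spleen arrays all lay at or under 5.69. The difference was -1.77 (SE 0.21) in ENK KO and -1.56 (SE 0.19) in WT, with the spleen values under the level for testing. H3c7 and H3c15, both under that level, differed in the same direction without the filter (-0.77 and -0.92 in ENK KO, -0.57 and -0.85 in WT).

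H4, the most conserved core histone, had all 6 genes lower in spleen but by less than H2B as a group, with medians of -0.81 in ENK KO and -0.86 in WT. The difference between the types was not tested. H4c6 differed most, at 9.25, 8.80, 9.05, 8.83 and 8.80 in spleen ENK KO and 8.49, 8.84, 8.77 and 8.52 in spleen WT, against 10.93 and 10.99 in thymus ENK KO and 11.15, 10.61 and 10.81 in thymus WT. That is -2.01 (SE 0.15) in ENK KO and -2.20 (SE 0.14) in WT, 4.04-fold and 4.59-fold. H4c8 and H4c14 differed by -0.62 and -0.88 in ENK KO and -0.91 and -0.79 in WT, and H4c9 by -1.0 in ENK KO and -0.96 in WT. H4c4 was at 13.19, 12.98, 12.78, 12.98 and 12.81 in spleen ENK KO and 12.87, 12.83, 12.82 and 13.20 in spleen WT, against 13.68 and 13.67 in thymus ENK KO and 13.50, 13.57 and 13.61 in thymus WT. Its groups did not overlap, yet the difference was only -0.73 (SE 0.11) in ENK KO and -0.63 (SE 0.10) in WT. H4c3 differed by -0.72 (SE 0.25, adjusted p = 0.0237) in ENK KO and -0.82 (SE 0.23, adjusted p = 0.00692) in WT, and its WT arrays overlapped between tissues. The ENK KO call of H4c3 was lost without thymus ENK KO 1 (adjusted p = 0.109) or 29 (adjusted p = 0.0888), and that of H4c8 without thymus ENK KO 1 (adjusted p = 0.067).

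**Figure D2:**
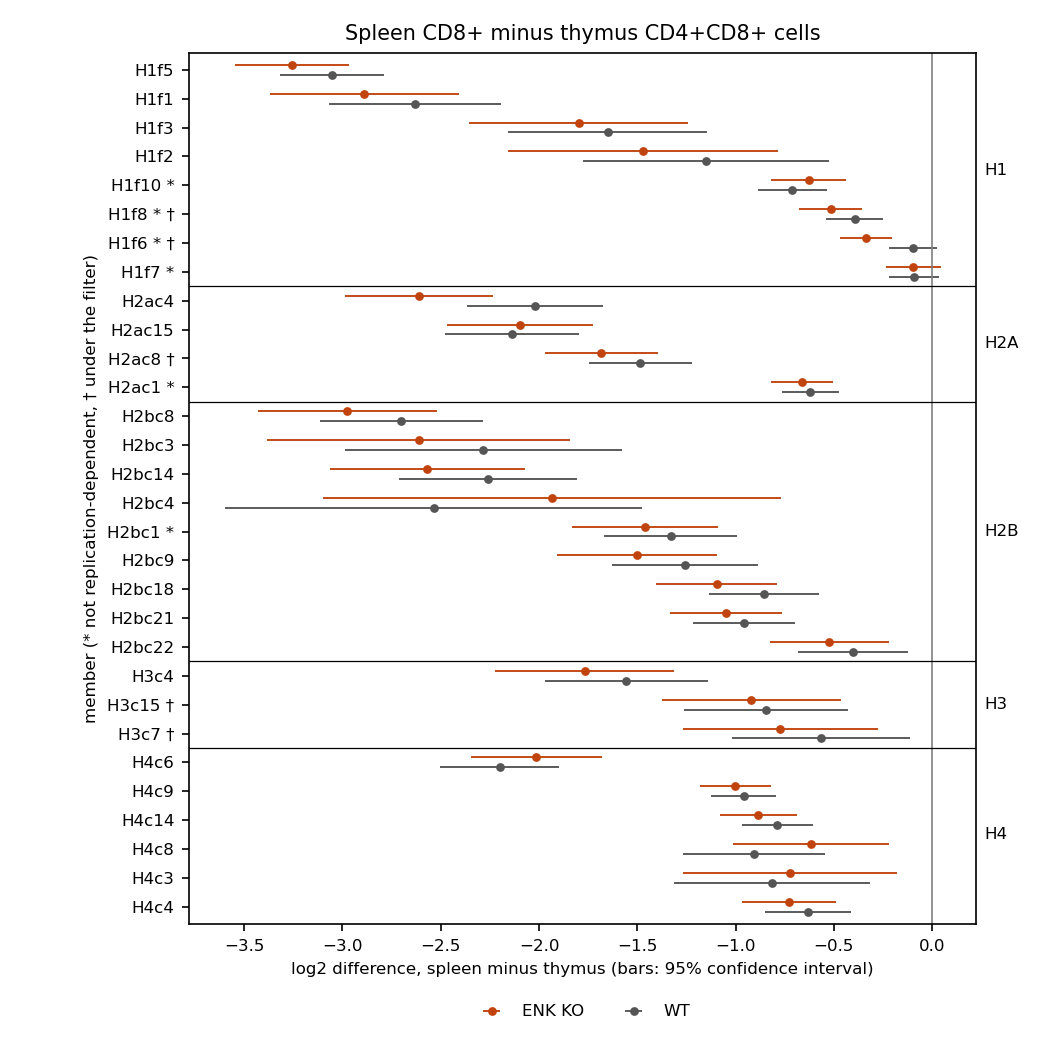
Points are log2 differences between spleen CD8+ and thymus CD4+CD8+ cells for the 30 histone genes in ENK KO (red) and WT (grey), with 95% confidence intervals of a fit without the filter, grouped by histone type. All points lie below 0, from about -3.26 for H1f5 in ENK KO to -0.094 for H1f7 in WT, and the intervals of the genotypes overlap for every gene.

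The 22 histone probe sets with several symbols were all lower in spleen too, by -0.52 to -5.85 in ENK KO and -0.29 to -5.40 in WT (medians -1.86 in ENK KO and -1.57 in WT). Of these, 21 list histone genes alone. The set with the largest difference, a shared H2B set, had all 9 spleen values under the level for testing, so that its size is taken against a low signal. It had 5.44, 5.90, 5.19, 4.34 and 3.44 in spleen ENK KO and 3.99, 4.66, 3.77 and 3.98 in spleen WT, against 11.26 and 10.17 in thymus ENK KO and 9.41, 8.97 and 10.12 in thymus WT. In WT the median was -2.56 for the 6 H2B sets, -1.73 for the 9 H3 sets and -1.10 for the 5 H4 sets. With the 21 added to the tested genes, 45 of 46 were called lower in ENK KO and 44 of 46 in WT.

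Genes that make and carry histone mRNA were mostly lower in spleen too. Of 15 tested genes for histone mRNA production 12 were lower and 2 higher in spleen in both genotypes, with medians of -0.29 in each. These medians are nearer to 0 than those of the histones, a difference that was not tested. Over all tested genes, 37.1% were lower and 27.4% higher in ENK KO, and 38.2% lower and 30.5% higher in WT. Npat, whose product organises histone transcription, differed by -0.68 (SE 0.07) in ENK KO and -0.71 (SE 0.07) in WT. Hinfp, which encodes the H4 promoter factor, differed by -0.59 in ENK KO and -0.60 in WT, and Eri1, a nuclease of histone mRNA decay, by -0.44 in ENK KO and -0.48 in WT. Casp8ap2, a component of the histone nuclear bodies, differed by -0.40 in ENK KO and -0.37 in WT. Cpsf3, the nuclease that cuts histone pre-mRNA, was higher in spleen by 0.45 in ENK KO and 0.66 in WT. Slbp, the stem-loop binding protein gene, did not pass, at -0.22 (SE 0.11, adjusted p = 0.095) in ENK KO and -0.023 (SE 0.10, adjusted p = 0.847) in WT.

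Chaperones, which hand histones to DNA, went both ways: 11 of 17 were lower and 4 higher in ENK KO, and 11 lower and 5 higher in WT. The counts of higher genes are near the shares over all tested genes, 27.4% in ENK KO and 30.5% in WT. The counts of lower genes exceed those shares, 37.1% in ENK KO and 38.2% in WT, an excess that was not tested. Atrx, a remodeller that works in H3.3 deposition, differed by -0.75 (SE 0.05) in ENK KO and -0.74 (SE 0.05) in WT, and Ubn1, of the HIRA complex, by -0.55 in ENK KO and -0.62 in WT. Chaf1a, the large subunit of the replication-coupled assembly factor, differed by -0.79 in ENK KO and -0.56 in WT. Ipo4, an importin of H3 and H4, was higher in spleen by 1.17 (SE 0.09) in ENK KO and 1.19 (SE 0.08) in WT. The list of replacement histones, most of which are not tied to S phase, had 6 tested genes, H2ax and Cenpa among them. In each genotype 3 were lower, while 1 was higher in ENK KO and 2 in WT, counts near the shares over all tested genes. H2az2 and Macroh2a1 differed by -0.89 and -0.58 in ENK KO and -0.85 and -0.53 in WT, whereas H2aj was higher by 0.53 in ENK KO and 0.60 in WT. H2az1 was higher in WT (0.44, SE 0.11, adjusted p = 0.00242) and did not pass in ENK KO (0.068, adjusted p = 0.625), a contrast that was not tested itself.

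Genes of cell division were lower in spleen as well, where 37.1% of all tested genes were lower in ENK KO and 38.2% in WT. All 22 tested mitotic genes were lower in both genotypes, with medians of -1.97 in ENK KO and -1.58 in WT. Kif11, a spindle motor, differed by -3.75 (SE 0.15) in ENK KO and -3.19 (SE 0.13) in WT, and Bub1, a kinase of the spindle checkpoint, by -3.17 in ENK KO and -2.47 in WT. Among 28 genes of DNA replication, ENK KO had 20 lower in spleen and 1 higher, and WT had 15 and 1, with medians of -0.65 in ENK KO and -0.34 in WT. Gins1, of the replicative helicase, differed by -1.34 in ENK KO and -1.26 in WT. Of 3 B cell genes, Cd79a and Ms4a1 were higher in spleen, by 1.06 and 1.53 in ENK KO and 1.78 and 2.06 in WT. Cd79b did not pass, at -0.44 in ENK KO and -0.28 in WT. The mean of the 3 was 7.22 to 8.36 in spleen ENK KO and 7.97 to 8.57 in spleen WT, against 6.95 to 7.08 in thymus ENK KO and 6.95 to 7.11 in thymus WT. Their part in the histone differences was not tested.

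Between genotypes no histone gene passed in either tissue. In thymus limma called 0 of 25, where 2 of all tested genes passed (0.0147%). At an unadjusted p under 0.05 there were 2 of 25, both higher in ENK KO, against 3.53% of all tested genes. The thymus arrays of ENK KO had the higher mean for 22 of 25 genes, with a median difference of 0.15 against 0 over all tested genes. Over all tested genes, 6551 of 13641 had the higher mean in ENK KO. So did 21 of the 22 probe sets with several symbols, with a median of 0.35, but these sets share genes and are not separate support. That median was not taken without WT 7, the lowest thymus array for the means of the H2B sets (11.07) and H3 sets (11.42) among them. The 2 ENK KO arrays both lay above the 3 WT arrays for 8 of 30 genes (H1f1, H2ac4, H2ac15, H2bc21, H2bc22, H3c15, H4c3 and H4c4) and below them for 0, where 3.26% of all genes lay above and 4.08% below. The median of the 25 was 0.061 without WT 7, 0.25 without WT 32, 0.25 without WT 38, 0.24 without ENK KO 1 and 0.089 without ENK KO 29, so that its size rests on single arrays. It was 0.036 with the labelled sex and age as covariates. With labelled males only it was 0.071, where ENK KO 29 stood alone against WT 32 and WT 38. Sex followed the labels, under which spleen WT 22 is female.

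H2ac4 had the smallest p. It was at 7.76 and 7.70 in thymus ENK KO and 7.17, 6.73 and 7.33 in thymus WT, where WT 32 was the low array. The difference was 0.65 (SE 0.19, unadjusted p = 0.00508, adjusted p = 0.951 in limma), 1.57-fold, and 0.48 without WT 32. H1f1 was at 12.02 and 11.73 in ENK KO and 11.64, 11.27 and 11.09 in WT, a difference of 0.54 (SE 0.24, adjusted p = 1). Neither gene overlapped between the genotypes, though the lowest ENK KO and highest WT values of H1f1 nearly touched. H2bc21 differed by 0.28 (SE 0.14) and H4c3 by 0.50 (SE 0.28), with WT 38 at 8.71 as the low array of H4c3. Without WT 38 the H4c3 difference was 0.25. That of H2bc21 was 0.11 without ENK KO 29 and 0.44 without ENK KO 1. On the lower side H1f10, which is not replication-dependent, had the lowest of the 25 differences, at -0.16 (SE 0.10), and -0.28 without ENK KO 29 and -0.052 without ENK KO 1.

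Mitotic and replication genes leaned the same way in thymus, with 16 of 22 and 11 of 28 higher in ENK KO at an unadjusted p under 0.05 and 0 called. Over all tested genes, 245 of 13641 were higher at that p. ENK KO 29 was the highest thymus array for 18 of 23 listed mitotic and 22 of 28 replication genes, against 13.3% of all genes. WT 32 was the lowest for 18 of 23 and 14 of 28, against 14.9%. How far the lean rests on these arrays was not tested. The mean of the mitotic list was 8.61 and 8.84 in ENK KO, against 8.33, 8.14 and 8.53 in WT. Among the mitotic genes Dlgap5, Bub1, Nusap1 and Ncapg had the smallest p, with differences of 0.39, 0.70, 0.84 and 0.58. Asf1b and Chaf1a, histone chaperones of replication, differed by 0.46 (SE 0.16) and 0.25 (SE 0.09), and Slbp by 0.29 (SE 0.12), each with adjusted p = 1. Of 4 tested early thymocyte genes 1 had an unadjusted p under 0.05, with a median difference of 0.42 over the 4. Whether the share of dividing or early cells bears on the histone values was not tested. The mean of the 24 replication-dependent histones was 9.38 and 9.54 in ENK KO and 9.09, 9.29 and 9.33 in WT. The groups did not overlap, but the nearest arrays, ENK KO 1 at 9.38 and WT 38 at 9.33, lay close together. How often means of other gene sets separate in this way was not tested.

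In spleen limma called 0 of 25 histone genes, where 1 of all tested genes passed (0.00733%). At an unadjusted p under 0.05 there were 2 of 25, both higher in ENK KO, a share near the 8.37% of all tested genes. The median of the 25 was 0.030, with 15 above and 10 below 0, and -0.0077 without ENK KO 3, -0.00074 without WT 22 and 0.037 without ENK KO 28. H4c3 was at 9.30, 8.84, 8.77, 8.90 and 9.11 in ENK KO and 8.84, 8.56, 8.30 and 7.86 in WT. The groups overlapped narrowly, and WT 40 was the low array. The difference was 0.59 (SE 0.20, unadjusted p = 0.0124, adjusted p = 0.595), and 0.61 without ENK KO 28 and 0.42 without WT 40. H4c6 differed by 0.29 (SE 0.12, unadjusted p = 0.0367, adjusted p = 0.595), H2bc18 by -0.23 (SE 0.11) and H2bc21 by 0.19 (SE 0.11). Without ENK KO 3, its high array, H2bc21 differed by 0.094.

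The largest spleen difference, that of H2bc4 (0.66, SE 0.43, unadjusted p = 0.155), was 0.32 without the library labelled spleen ENK KO 28. H1f6, a testis gene under the level for testing, lay lower on all ENK KO spleen arrays (6.14, 6.39, 6.26, 6.39 and 6.27) than on the WT arrays (6.45, 6.42, 6.52 and 6.46). Without the filter its difference was -0.17 (SE 0.05, adjusted p = 0.59), and 0.762% of all genes lay lower in this way. The erythroid and platelet list (3 genes) had lower means in ENK KO, at 6.49 to 7.21, than in WT, at 7.55 to 7.71, and 1 of its 2 tested genes was called lower. Its part in the spleen differences was not tested. No list of histone handling or cell division had a gene called in spleen.

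Whether the effect of ENK KO differed between tissues was tested by the interaction term, which called 0 of 25 histone genes and 0.00733% of all tested genes. At an unadjusted p under 0.05 H2ac4 stood alone, with a spleen effect 0.59 below the thymus effect (log2 difference -0.59, adjusted p = 1), where 2.99% of all tested genes did. The 95% intervals of the genotype differences within a tissue leave room for moderate effects. For H2ac4 in thymus the interval ran from 0.23 to 1.07, and for H4c3 in spleen from 0.15 to 1.03. Each was the histone gene with the smallest p in its tissue. The intervals are not adjusted for that choice, and neither gene passed after adjustment.

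**Figure D3:**
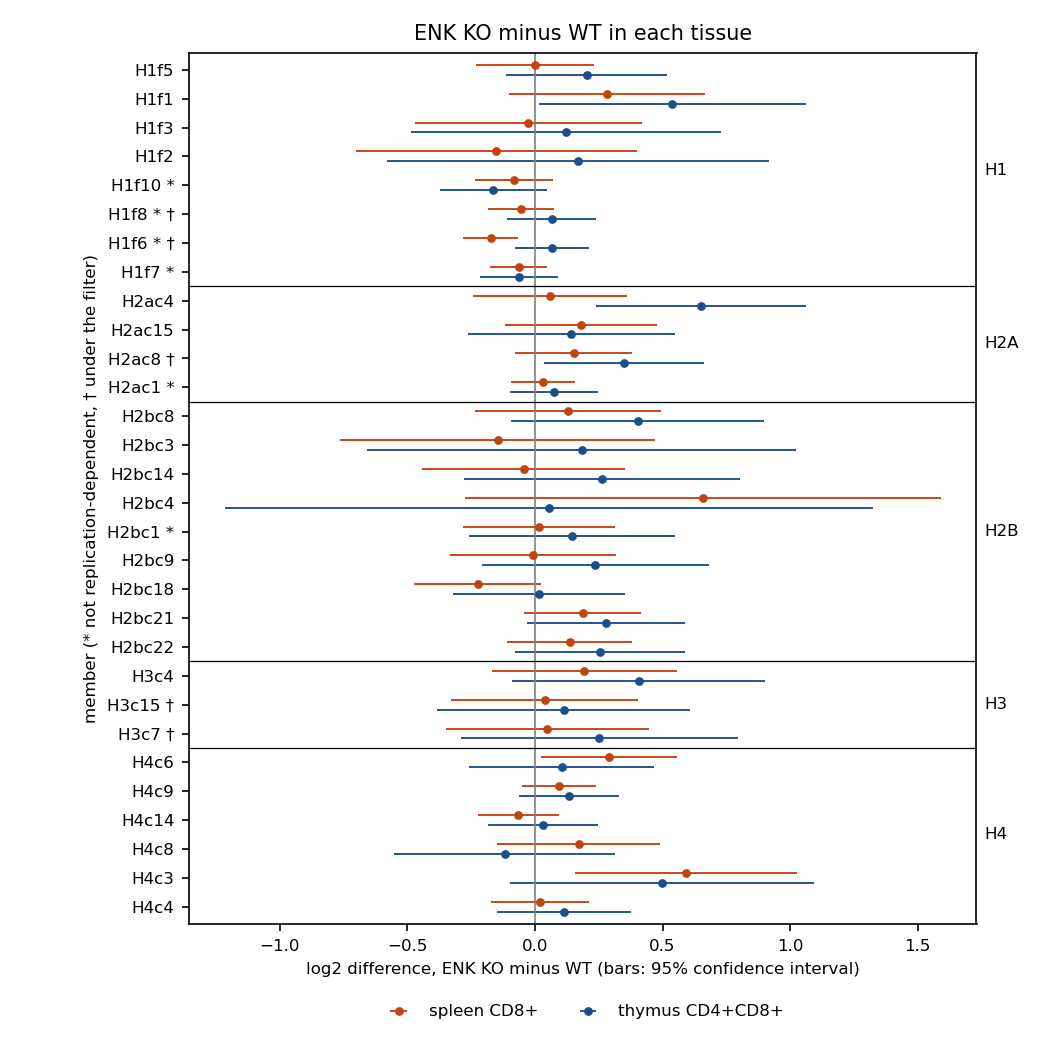
Points are log2 differences between ENK KO and WT for the 30 histone genes in spleen CD8+ (red) and thymus CD4+CD8+ cells (blue), with 95% confidence intervals of a fit without the filter. Most thymus points lie right of 0, led by H2ac4 at 0.65, while the spleen points lie around 0 apart from H4c3 at 0.59 and H2bc4 at 0.66, whose interval crosses 0.

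On single arrays some histone types moved apart. Thymus WT 7 had the lowest of the 5 thymus values for 18 of 30 histone genes, where it did for 20.4% of all genes, and for 8 of 9 H2B genes. H2bc14 was at 11.18 on WT 7, against 12.02 and 12.15 on WT 32 and WT 38, and H2bc9 at 10.38, against 11.22 and 11.15. H1f3 was at 7.30, against 8.22 and 8.28. For H2B the median gap between WT 7 and the mean of the other 2 WT arrays was -0.77. For H4 it was 0.27, with 4 of 6 genes above both other WT arrays: H4c8 was at 8.39 on WT 7, against 7.80 and 7.72, and H4c6 at 11.15, against 10.61 and 10.81. H1f1 also lay above both, at 11.64 against 11.27 and 11.09. Over all genes 27.0% lay below and 25.7% above both other WT arrays.

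Among probe sets with several symbols, the mean of the H2B sets was 11.07 on WT 7, below the 11.67 and 11.90 of WT 32 and WT 38. That of the H4 sets was 10.65, between their 10.43 and 10.79. The mitotic mean of WT 7 was 8.33, between the 8.14 of WT 32 and the 8.53 of WT 38. WT 7 is the female of this group. Whether the sex, the RNA or the cells of that sample bear on the pattern was not tested. Over all 14 arrays, deviations from the group means correlated with a median r of 0.46 among 28 pairs of H2B genes and 0.43 among 15 pairs of H4 genes, and 0.093 between H2B and H4 (48 pairs). Other pairs of types had medians of 0.48 for H2A with H4, 0.41 for H1 with H2B, 0.37 for H1 with H2A, 0.29 for H2A with H2B and 0.25 for H1 with H4. Within H1 the median was 0.076 (6 pairs), so that values between types were not generally lower than within them. These are descriptions across arrays that share a normalization.

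**Figure D4:**
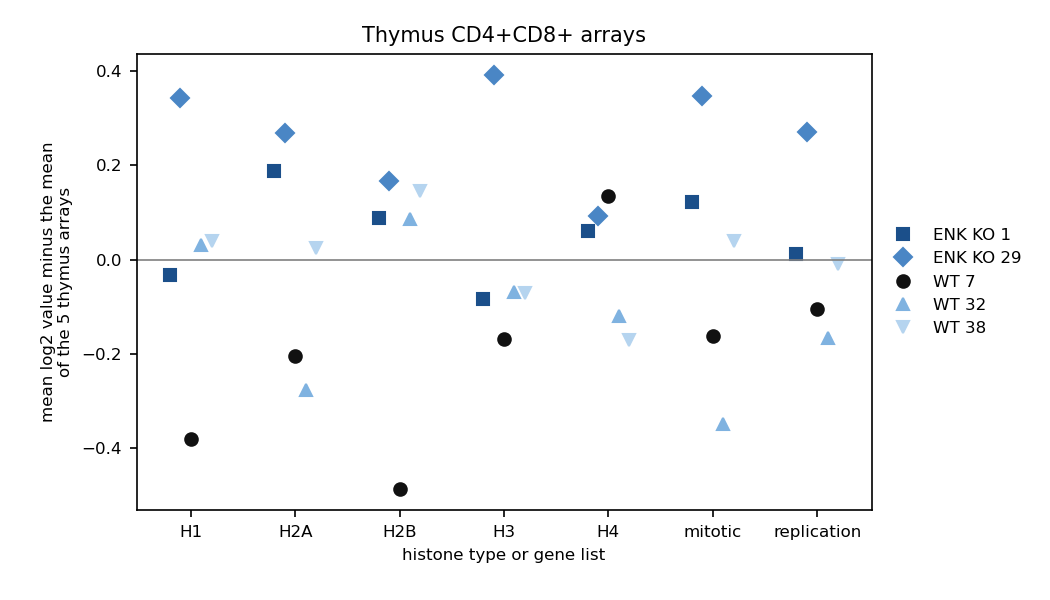
Each symbol is a thymus array, placed at its mean log2 value for a histone type or gene list minus the mean of the 5 thymus arrays. WT 7 (black circles) lies lowest for H1, H2B and H3 but highest for H4, while WT 32 is lowest for the mitotic and replication lists.

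Among spleen arrays ENK KO 3, a 2-month-old female, had the highest value for 12 of 30 histone genes, where it did for 11.2% of all genes. Its mean over the 24 replication-dependent genes was 8.10, against 7.63 to 7.82 on the other 8 spleen arrays. ENK KO 6, the other 2-month-old female, was at 7.69. WT 40 had the highest value for 11 genes, but it did for 24% of all genes too. H2ac15 was at 11.77 on ENK KO 3, against 10.89 to 11.30 on the other spleen arrays, and H3c15 at 6.50, against 5.38 to 5.92.

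The relation to cell division could be described only within tissues, because spleen and thymus arrays form separate clusters. The mitotic mean was 6.55 to 6.80 on the 9 spleen arrays and 8.14 to 8.84 on the 5 thymus arrays, and the histone mean was 7.63 to 8.10 on the spleen arrays and 9.09 to 9.54 on the thymus arrays. Over the 9 spleen arrays the histone mean and the mitotic mean had a Pearson r of -0.095 and a Spearman rho of 0.017. The mitotic mean lay around the level for testing, 6.76, on these arrays. Some of its genes lay under that level on all of them, such as Bub1 (5.29 to 5.48) and Kif11 (6.04 to 6.36). With so narrow a range and so low a signal, an r close to zero does not show that the histone level is unrelated to division. Without ENK KO 28 r was -0.034 (n = 8), and without the 2 arrays farthest from the median of the mitotic mean (ENK KO 6 and 28) it was 0.29 (n = 7). With the replication mean r was 0.31 over 9 arrays and rho 0.30. That r was 0.75 without ENK KO 28 and 0.41 without both ENK KO 28 and ENK KO 3, so that it rests on these arrays. By type, r without both ran from -0.059 for the H3 mean to 0.48 for the H2B mean. For the means of probe sets with several symbols it was 0.060 for H2B, 0.81 for H3 and -0.53 for H4 (n = 7). Among single genes 19 of 30 had an r above 0 with the mitotic mean, with a median of 0.090, and 20 of 30 with the replication mean, with a median of 0.23. The same counts were not made over all genes, so that these cannot be read as particular to histones. The 5 thymus arrays are too few for a correlation. There, ENK KO 29 had the highest mitotic mean and the highest histone mean, whereas the lowest were on different arrays, WT 32 and WT 7.

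**Figure D5:**
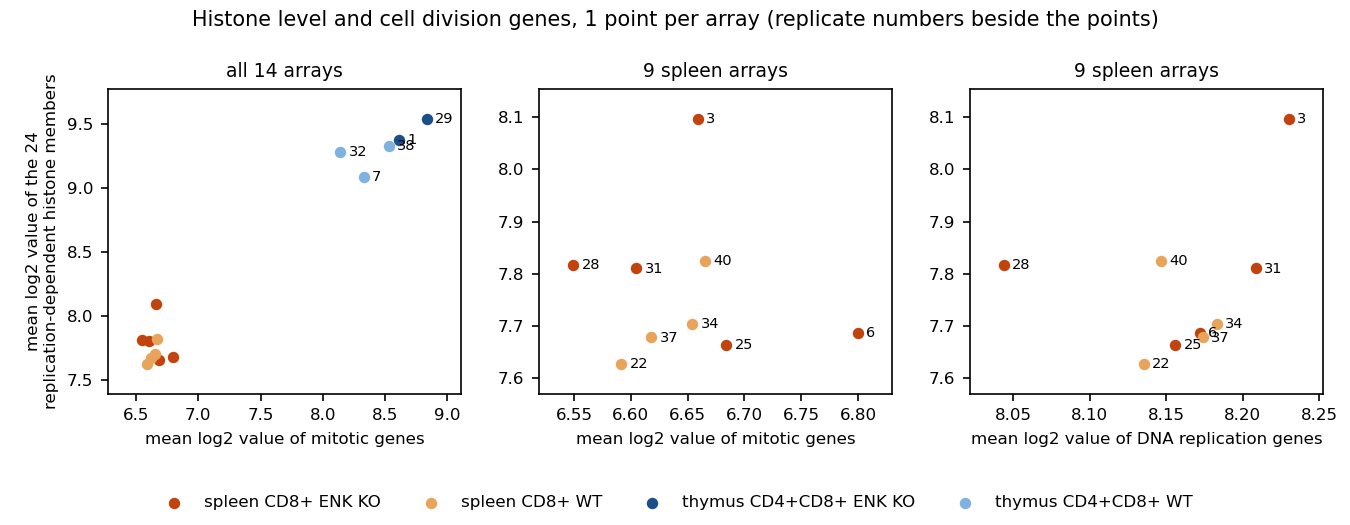
Each point is an array, with the mean log2 value of the 24 replication-dependent histone genes on the vertical axis and that of mitotic genes (left and middle) or DNA replication genes (right) on the horizontal axis. The thymus arrays form a separate cluster at upper right, and within spleen ENK KO 3 stands alone at 8.10 and ENK KO 28 lies at the left edge of both spleen panels.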

How the data were processed

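RNA of sorted mouse T cells (300 ng per sample) was hybridised to 14 Affymetrix arrays, per the labels' protocols. The authors deposited log2 expression values made by RMA, per the submitters' processing notes; the software that ran it was not given in the sources used here. RMA fits probe sets over all arrays together, and some genes carry identical values on several arrays. Arrays have no read depth, so the number of arrays limits the precision.

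Probe sets were named through the platform annotation: of 28213, 21640 had 1 gene symbol, 1321 several and 5252 none. A gene was represented by its brightest single-symbol probe set (19937 genes) and tested where it exceeded 6.76, the 40th percentile, on 2 or more arrays (13641 genes). limma 3.58.1 in R 4.3.3 was fitted with 1 mean per group over all arrays (eBayes with trend), with Benjamini-Hochberg adjustment over all tested genes and a threshold of 0.05. Differences are log2. The test was checked on simulated data. Confidence intervals are 95%. Named genes are, per histone type, the brightest and the most variable, per comparison the 10 largest called or the 4 smallest p, and up to 4 of each gene list; others named here were chosen after their values were seen. The members and lists were chosen with earlier results of these data known. Promoter windows came from RefSeq (GRCm38.p6), and the build of the array was not given in the sources used here. Alternatives covered the filter, normalization, probe set choice, variance model, covariates, left-out arrays, call rule and membership.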

Additional observations from a re-analysis of the deposited data

Results flagged for a closer look

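In groups of 4 or 5 arrays, 11 of the 74 sets of values examined had 1 array far from the others by Dixon's criterion. Independent, normally spread values meet it by chance in about 1 of 20 sets. The sets here share arrays and genes, and no share over all genes was taken. The count therefore does not show an excess, nor one particular to histones. Spleen ENK KO 3 gave 4 of them and spleen WT 40 another 4. WT 40 was the highest WT spleen array for 43.5% of all genes, and ENK KO 3 the highest ENK KO spleen array for 21.2%. On ENK KO 3, H2ac1 was at 8.22 (the other ENK KO spleen arrays 8.09 to 8.12), H2bc1 at 6.89 (6.42 to 6.53), the H2A mean at 7.25 (6.63 to 6.80) and the H4 mean at 9.69 (9.32 to 9.39). On WT 40, H1f7 was at 7.63 (the other WT spleen arrays 7.49 to 7.51), H1f8 at 6.39 (6.11 to 6.14), H2bc1 at 6.76 (6.46 to 6.50) and H4c4 at 13.2 (12.82 to 12.87). Spleen WT 37 was low for H2bc21, at 6.69 (6.81 to 6.82), and for H3c4, at 5.02 (5.34 to 5.38). Spleen ENK KO 6 had H1f8 at 6.12, against 6.14 to 6.15, a gap too small to read beside values that repeat between arrays. The library labelled spleen ENK KO 28 was far from the others in none of these sets, although it had the highest spleen H2bc4.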

How the results depend on the processing

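The counts of called histone genes stayed within 1.5 times of the reported count under the alternatives run, except as follows. With an unadjusted p under 0.05 and a fold of at least 1.5 as the rule, 1 gene passed in thymus, 1 in spleen and 1 in the interaction. With the probe sets of several histone symbols added, 45 of 46 were lower in spleen in ENK KO and 44 of 46 in WT. Leaving out 1 array at a time gave 0 to 0 called genes for the genotype and interaction results, 21 to 24 for the ENK KO tissue difference and 23 to 24 for the WT one. Without the 2-month-old animals, or with males only, the ENK KO count was 21. In single genes 13 tissue calls were lost, 11 in ENK KO (H2bc22, H2bc4, H4c3 and H4c8) and 2 in WT (H2bc22), and 0 reversed. The median genotype difference in thymus was 0.036 with sex and age as covariates and 0.071 with males only, and in spleen it was -0.059 and -0.064. Sex was taken from the labels, so spleen WT 22 was set as female despite its Y-linked transcripts. Males only left thymus ENK KO 29 as the single ENK KO thymus array. The r of the histone mean with the mitotic mean, -0.095, was 0.285 without the 2 farthest arrays and 0.31 with DNA replication genes in place of mitotic genes. The cause of these shifts was not tested. A fit of each tissue alone was not run for the tissue differences and the interaction, which need both tissues. No paired analysis was possible because the groups share no replicate number. Signal near the background limits H1f6, H1f8, H2ac8, H3c7 and H3c15, and the spleen values of H1f3, H2ac4 and H3c4. It also touches the spleen values of H2bc8, H2bc4 and H2bc1, of which 4, 3 and 2 of 9 lay above the level for testing.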
